A study of Mus musculus with 9 samples.

Results

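The 10 genes described here are imprinted growth regulators, namely the growth factor Igf2, its receptor Igf2r, the signalling adaptor Grb10, the ligand-like membrane protein Dlk1, the long non-coding RNAs H19 and Meg3, the transcription factors Plagl1 and Peg3, and the genes Mest and Ndn. They were found by symbol among the 56980 gene rows of a count table, and each of the 10 symbols matched a single row. Polyadenylated RNA had been sequenced as 9 libraries of mouse oligodendrocyte progenitor cells (OPCs), the cells that give rise to myelinating oligodendrocytes. The libraries formed 3 groups of 3. BB-p53n EZH2i cells were Trp53 -/- primary OPCs that express the growth factor PDGF-BB and had 48 hours of tazemetostat, an inhibitor of the histone methyltransferase EZH2, at 5 µM. BB-p53n DMSO cells were the same PDGF-BB expressing Trp53 -/- OPCs given the vehicle DMSO. The p53n cells were Trp53 -/- OPCs without PDGF-BB, labelled as control. Every group thus lacked p53, and all were kept in SATO medium with 10 ng/mL PDGF-AA. The labels describe the cells as mutant primary lines and do not say how PDGF-BB was introduced or how many lines there were. They also leave unsaid whether replicate libraries stem from different cultures, and the p-values therefore reflect the spread among these libraries alone, which may be technical. The design sets BB-p53n DMSO against p53n for the effect of PDGF-BB, and BB-p53n EZH2i against BB-p53n DMSO for that of the inhibitor. These comparisons share the BB-p53n DMSO libraries, and since only PDGF-BB cells had DMSO, PDGF-BB and vehicle cannot be told apart in the first.

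Imprinted genes are transcribed mainly from the copy inherited from a single parent, under the control of DNA methylation laid down in the germ line at control regions that are shared by clusters of neighbouring genes. Many of them set growth: paternally expressed genes such as Igf2 and Dlk1 tend to promote it, and maternally expressed genes such as H19, Igf2r and Grb10 tend to restrain it, although Plagl1 and Ndn, which are paternally expressed, are known as growth suppressors. In the nervous system, DLK1 takes part in the control of neural stem cells, necdin (the product of Ndn) restrains the division of neural progenitors, and GRB10 is expressed from the paternal copy in mouse neurons and from the maternal copy in most other tissues. EZH2 is the catalytic subunit of the Polycomb complex that places the repressive mark H3K27me3, which is also found at some imprinted loci. The counts do not separate the parental copies, so every value below is the sum over both.

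The start-site regions of 6 of the genes are printed here because these genes carry much of the account below, Dlk1 and Ndn with the largest fold changes of the 9 tested genes in both main comparisons, and because they differ in CpG content and in the motif of an imprinting factor. Sequences are from RefSeq, build GRCm38.p6, and run from 250 bases before to 50 bases after an annotated start, 5′ to 3′ on the gene's strand. Capitals mark matches to TGCCGC on either strand (GCGGCA on the strand printed), the core that the zinc-finger protein ZFP57 binds when its CpG is methylated. The regions are chr12:109452573-109452872 (plus strand) for Dlk1, chr12:109540746-109541045 (plus) for the upstream of the 2 annotated Meg3 starts, chr7:62348027-62348326 (plus) for Ndn, chr6:30737800-30738099 (plus) for a Mest start, chr10:13090582-13090881 (plus) for Plagl1 and chr7:6730370-6730669 (minus) for Peg3.
Dlk1: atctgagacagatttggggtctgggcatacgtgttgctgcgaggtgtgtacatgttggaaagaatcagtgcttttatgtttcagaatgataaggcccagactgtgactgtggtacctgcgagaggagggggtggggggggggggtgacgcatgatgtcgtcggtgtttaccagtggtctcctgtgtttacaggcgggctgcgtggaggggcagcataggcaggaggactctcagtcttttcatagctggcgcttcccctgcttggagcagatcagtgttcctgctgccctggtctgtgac
Meg3: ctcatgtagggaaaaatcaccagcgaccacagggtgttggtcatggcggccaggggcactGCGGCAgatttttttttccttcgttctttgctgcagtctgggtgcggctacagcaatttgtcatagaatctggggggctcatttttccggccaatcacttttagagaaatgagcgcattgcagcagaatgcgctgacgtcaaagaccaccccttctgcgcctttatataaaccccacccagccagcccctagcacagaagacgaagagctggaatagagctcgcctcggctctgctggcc
Ndn: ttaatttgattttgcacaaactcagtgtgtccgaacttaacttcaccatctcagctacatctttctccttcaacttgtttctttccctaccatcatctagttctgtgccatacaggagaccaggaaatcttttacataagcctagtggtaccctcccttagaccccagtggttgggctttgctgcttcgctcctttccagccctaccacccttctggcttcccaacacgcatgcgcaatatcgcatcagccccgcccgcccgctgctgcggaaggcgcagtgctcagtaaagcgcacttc
Mest: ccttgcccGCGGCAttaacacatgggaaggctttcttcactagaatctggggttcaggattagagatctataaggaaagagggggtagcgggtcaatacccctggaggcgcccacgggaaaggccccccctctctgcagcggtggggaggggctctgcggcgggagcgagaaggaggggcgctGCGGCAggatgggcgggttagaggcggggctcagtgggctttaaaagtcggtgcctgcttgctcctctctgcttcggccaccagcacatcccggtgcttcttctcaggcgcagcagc
Plagl1: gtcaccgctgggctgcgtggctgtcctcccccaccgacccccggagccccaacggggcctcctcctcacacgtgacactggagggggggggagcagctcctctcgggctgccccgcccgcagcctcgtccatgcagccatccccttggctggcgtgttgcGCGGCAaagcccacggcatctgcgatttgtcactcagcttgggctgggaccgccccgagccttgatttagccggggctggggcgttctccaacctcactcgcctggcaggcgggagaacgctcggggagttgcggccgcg
Peg3: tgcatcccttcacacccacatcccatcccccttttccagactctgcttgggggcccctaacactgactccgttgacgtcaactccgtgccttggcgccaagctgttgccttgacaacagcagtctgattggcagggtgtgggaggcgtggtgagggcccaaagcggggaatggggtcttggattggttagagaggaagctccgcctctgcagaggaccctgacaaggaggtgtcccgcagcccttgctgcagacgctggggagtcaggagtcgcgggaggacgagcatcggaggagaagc

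Among these windows the Plagl1 region held 26 CpG dinucleotides, the Mest region 17, the Meg3 and Peg3 regions 13 each, the Ndn region 11 and the Dlk1 region 9. The median over the 32851 start-site windows of the same length in the RefSeq table was 7, with a 10th to 90th percentile range of 1 to 31. The Mest window held 2 matches to the motif, and the Meg3 and Plagl1 windows held 1 each. No match lay in the Dlk1, Ndn and Peg3 windows, which says only that these letters are not in these 300 bases. Over the 16 windows annotated for 9 of the genes (H19 had none), 6 held a match, against 11.6% of all windows. The windows of 1 gene can overlap, as those of Mest that hold a match do. The motif holds a CpG and the windows were not matched for CpG content, so these shares are a description only.

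The libraries held between 19471768 and 34557109 counts, and 3 counts in a library corresponded to between 0.0888 and 0.160 CPM (each count divided by the TMM-scaled library size, on the usual per-million scale). Mitochondrial genes took 1.34% to 1.54% of the counts in BB-p53n EZH2i, 2.44% to 2.62% in BB-p53n DMSO and 4.46% to 5.76% in p53n libraries. The summed level of 12 OPC marker genes was 4962 to 5256 CPM in BB-p53n EZH2i, 6694 to 6735 in BB-p53n DMSO and 8627 to 9215 in p53n, and that of 13 neuron markers was 651 to 780, 1796 to 1964 and 2187 to 2220 CPM in the same groups. The 12 astrocyte markers summed to 1494 to 1646, 1303 to 1328 and 2169 to 2385 CPM, and the 12 mural cell and fibroblast markers to 2.34 to 3.17, 2.06 to 3.26 and 3.40 to 4.66 CPM. Each of the 12 astrocyte markers was lower with PDGF-BB at an adjusted p under 0.05 (edgeR), beside 34% of all genes. Of these, 9 were at least 2-fold lower, and the median log2 fold change was -2.43. With EZH2 inhibition 5 were higher and 4 lower (median -0.10), beside 37.3% and 35.6% of all genes. The OPC marker Sox10 had only 45 to 68 counts in p53n libraries. The OPC markers went both ways with PDGF-BB, so their sum does not speak for each of them. Of 11 tested, 4 were higher and 6 lower at an adjusted p under 0.05 (edgeR), beside 35.3% and 34% of all genes. Their log2 fold changes with PDGF-BB ran from -3.85 to 7.07 (median -0.22). Xist stood at 2.82 to 17.4 CPM in BB-p53n EZH2i, 46.2 to 65.0 CPM in BB-p53n DMSO and 2777 to 3101 CPM in p53n. The levels of 4 Y-linked genes were 2.50 to 17.9, 21.3 to 55.1 and 0.208 to 0.925 CPM. PDGF-BB expression and a difference in the origin of the cells thus cannot be told apart. Neither range overlapped between BB-p53n EZH2i and BB-p53n DMSO, and whether the cells of these groups differ in make-up was not tested. Trp53 itself, the gene deleted in all groups, kept 12.99 to 15.2 CPM in BB-p53n EZH2i, 12.02 to 14.9 CPM in BB-p53n DMSO and 6.77 to 8.33 CPM in p53n; the deleted part is not given in the labels. Mouse Pdgfb was below 0.24 CPM in every library, so these counts do not show the PDGF-BB that was expressed. In bulk RNA, fewer cells of a type and less RNA per cell cannot be told apart either, and the part of these marker differences in the results below was not tested.

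Levels of different genes were compared per exon length, as RPKM (the CPM divided by the exon length in kilobases). In BB-p53n EZH2i libraries Mest was the highest of the 10 with a mean of 91.1 RPKM, followed by Ndn (14.6), Peg3 (10.6), Igf2r (9.43), Dlk1 (2.82) and Grb10 (1.52). In BB-p53n DMSO libraries Mest (72.3 RPKM) was followed by Peg3 (26.7), Dlk1 (12.4), Igf2r (12.04), Ndn (3.21), Plagl1 (1.29) and Grb10 (1.08). In p53n libraries the order was Peg3 (31.9 RPKM), Ndn (31.4), Mest (26.2), Igf2r (4.73), Grb10 (1.44), Dlk1 (0.833) and Plagl1 (0.794). The ranges over the 3 libraries of a group overlapped for the neighbours Peg3 and Igf2r in BB-p53n EZH2i, for Dlk1 and Igf2r and for Plagl1 and Grb10 in BB-p53n DMSO, and for Peg3 and Ndn and for Dlk1 and Plagl1 in p53n, so these pairs were not ordered beyond their spread. Meg3, H19 and Igf2 were at or below 0.545 RPKM in every library. By mean, Ndn was thus the second gene in BB-p53n EZH2i and in p53n but the fifth in BB-p53n DMSO, and Dlk1 was the third in BB-p53n DMSO but the sixth in p53n.

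**Figure D1:**
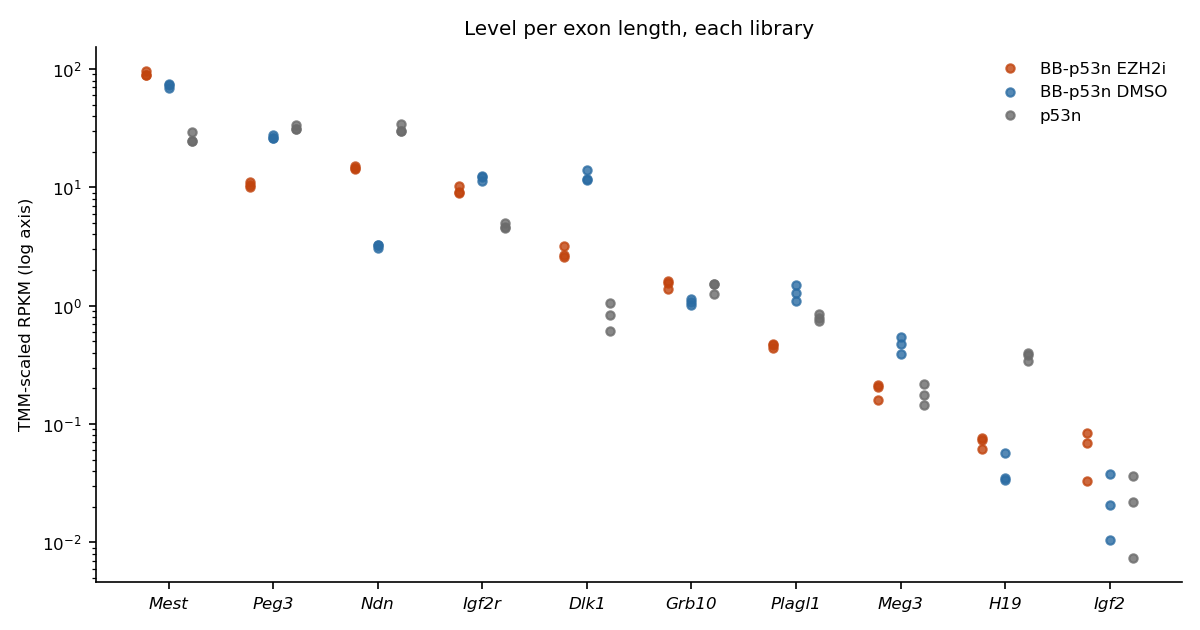
Level of the 10 genes per exon length, as TMM-scaled RPKM on a log axis, with a point for each of the 9 libraries (BB-p53n EZH2i, BB-p53n DMSO and p53n from left to right within a gene). Mest, Peg3, Ndn and Igf2r lie above the others in most groups, and Dlk1 (2.82, 12.4 and 0.833 RPKM on average) and Ndn (14.6, 3.21 and 31.4 RPKM) are spread most widely among the well-measured genes.

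Tests were run on the counts of all 17001 genes that passed the filter on low counts, and a gene was called at an adjusted p under 0.05 (edgeR's quasi-likelihood test, Benjamini-Hochberg over all genes tested). Of the 10 genes, 9 passed the filter and Igf2 did not, and H19 passed only through its counts in p53n, so that it could enter the tests only as lower in the PDGF-BB libraries. Its place in the counts below is therefore a description. With PDGF-BB expression, 5 of the 9 were called higher and 4, H19 included, lower in BB-p53n DMSO than in p53n, where 69.3% of all genes were called (35.3% higher and 34% lower). With EZH2 inhibition, 3 were called higher and 5 lower, against a background of 72.9% (37.3% higher and 35.6% lower). Between BB-p53n EZH2i and p53n, 3 were called higher and 4, again with H19, lower, against 82% of all genes (40.3% higher and 41.7% lower). The groups did not overlap in any library for 9, 9 and 7 of the 9 genes in these comparisons, and for 76.1%, 75.3% and 82.2% of all genes. For H19 with EZH2 inhibition this rests on the scaling to library size alone, since both groups had 3 to 5 counts per library. Calls were thus frequent among all genes, and the size of each difference says more than its call. A difference of at least 2-fold was found for 6 of the 9 genes with PDGF-BB (4 higher, 2 lower, namely Ndn and H19), against 29.8% of all genes, for 5 of 9 with EZH2 inhibition (1 higher, 4 lower), against 29.7%, and for 5 of 9 between BB-p53n EZH2i and p53n (2 higher, 3 lower, H19 included), against 51%. The median log2 fold changes of the 9 genes were 0.69, -0.35 and 0.08, beside -0.02, 0.02 and -0.04 over all genes tested.

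**Figure D2:**
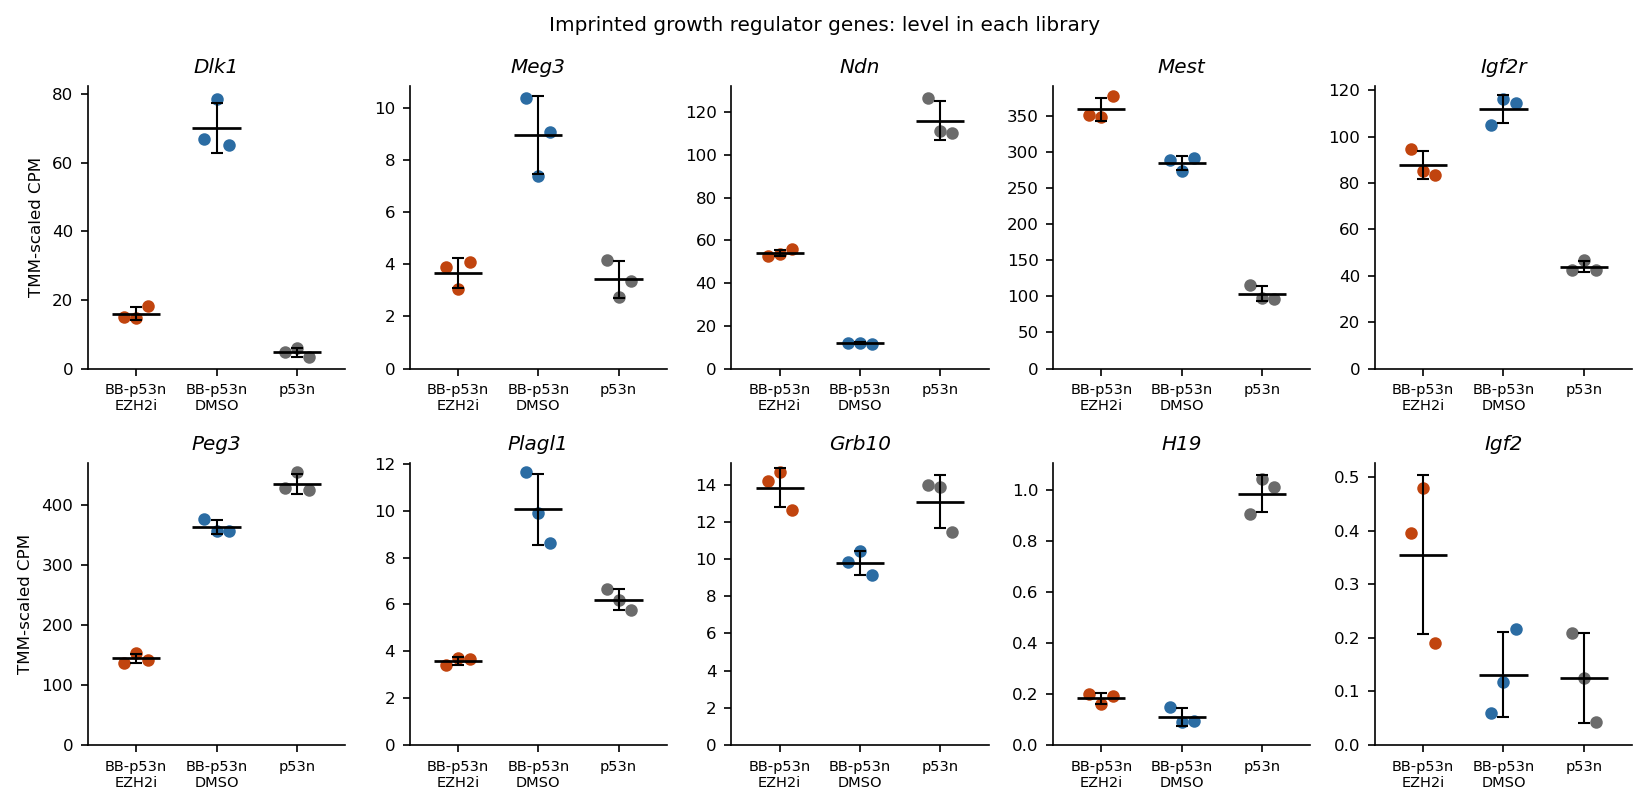
Level of each gene in every library, as TMM-scaled CPM on axes that start at 0 and differ between panels, with BB-p53n EZH2i left, BB-p53n DMSO in the middle and p53n right. Points are libraries, wide bars are means and error bars are SD (n = 3). Dlk1, Meg3, Igf2r and Plagl1 are highest in BB-p53n DMSO, Ndn and Grb10 are lowest there, and Mest has its lowest and Peg3 its highest values in p53n.

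Dlk1, on chromosome 12 (109418749 to 109429262, plus strand, GRCm39 as in the deposited table), encodes a transmembrane protein with EGF-like repeats that resembles Notch ligands and is known to keep progenitor cells undifferentiated. It stood at 15.1, 14.7 and 18.2 CPM in BB-p53n EZH2i, at 66.9, 78.7 and 65.1 CPM in BB-p53n DMSO and at 4.69, 5.99 and 3.45 CPM in p53n libraries. The 3 groups were separate, with BB-p53n DMSO highest and p53n lowest. With PDGF-BB expression Dlk1 rose 14.9-fold (log2 fold change 3.90, SE 0.15, adjusted p = 3.37e-13, edgeR). With EZH2 inhibition it fell 4.39-fold (log2 fold change -2.14, SE 0.13, adjusted p = 2.75e-10), and BB-p53n EZH2i cells remained above p53n cells by a log2 fold change of 1.76 (adjusted p = 1.33e-08). The 100 tested genes within 5 Mb of Dlk1 had median log2 fold changes of 0.32 with PDGF-BB and 0.16 with EZH2 inhibition.

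Meg3, downstream of Dlk1 on the same strand (109506879 to 109538165), is a maternally expressed non-coding RNA of the Dlk1 cluster with reported growth-suppressing activity. It stood at 3.88, 3.04 and 4.09 CPM in BB-p53n EZH2i, at 10.4, 7.40 and 9.10 CPM in BB-p53n DMSO and at 4.16, 2.75 and 3.37 CPM in p53n. BB-p53n DMSO libraries were above all others, and the BB-p53n EZH2i and p53n libraries overlapped. Meg3 rose with PDGF-BB (log2 fold change 1.38, SE 0.18, adjusted p = 7.84e-07) and fell with EZH2 inhibition (log2 fold change -1.28, SE 0.18, adjusted p = 2.06e-06, edgeR). Between BB-p53n EZH2i and p53n its log2 fold change was 0.10 (SE 0.20, adjusted p = 0.655), and -0.03 without p53n replicate 2. Dlk1 and Meg3, which are expressed from opposite parental copies, thus were both highest in BB-p53n DMSO.

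Igf2 (chromosome 7, 142204503 to 142220553, minus strand), the fetal growth factor that signals through the IGF1 receptor, was barely detected. It had 10, 9 and 4 counts in BB-p53n EZH2i, 2, 4 and 7 counts in BB-p53n DMSO and 6, 3 and 1 counts in p53n libraries, so that the groups overlapped. Over the summed counts (23, 13 and 10), the ratio of BB-p53n EZH2i to BB-p53n DMSO was 2.71 (exact 95% interval 1.32 to 5.83) and that of BB-p53n DMSO to p53n was 0.999 (0.405 to 2.55), intervals that cover counting error only. With no filter on low counts edgeR gave adjusted p-values of 0.966 for PDGF-BB expression, 0.201 for EZH2 inhibition and 0.156 between BB-p53n EZH2i and p53n. Without BB-p53n EZH2i replicate 3, which had the fewest counts of its group, Igf2 passed the filter through the other libraries of that group. Its log2 fold changes were then 1.70 against BB-p53n DMSO and 1.73 against p53n, given without a test for that reason. Of the Igf2 exon bases 64.5% overlap other annotated genes, among them the antisense gene Igf2os, and counting did not use strand, so Igf2 could be undercounted. Igf2os had 25 counts over the BB-p53n EZH2i, 6 over the BB-p53n DMSO and 4 over the p53n libraries.

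H19 (chromosome 7, 142129262 to 142131886, minus strand), the maternally expressed non-coding RNA that shares its enhancers with Igf2, had 5, 3 and 4 counts in BB-p53n EZH2i, 5, 3 and 3 counts in BB-p53n DMSO and 26, 25 and 24 counts in p53n libraries. The p53n libraries were above all others at 0.902 to 1.04 CPM, and the PDGF-BB libraries stayed at or below 0.198 CPM. The log2 fold change with PDGF-BB was -3.10 (SE 0.47) and the ratio of summed counts 0.113 (exact 95% interval 0.0540 to 0.213), given without a test because H19 was kept only for its level in p53n. With EZH2 inhibition its log2 fold change was 0.72 (SE 0.63, adjusted p = 0.31), which at 12 and 11 counts left a change in either direction possible: the ratio of summed counts, 1.67, had an interval of 0.676 to 4.18. Between BB-p53n EZH2i and p53n the log2 fold change was -2.39 (SE 0.47).

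Igf2r (chromosome 17, 12901293 to 12988551, minus strand) encodes the receptor that carries IGF2 to the lysosome for degradation and is maternally expressed in most mouse tissues. It stood at 94.9, 85.1 and 83.4 CPM in BB-p53n EZH2i, at 105, 116 and 115 CPM in BB-p53n DMSO and at 42.7, 46.9 and 42.4 CPM in p53n. The groups did not overlap. Igf2r rose with PDGF-BB (log2 fold change 1.35, SE 0.08, adjusted p = 2.21e-12) and fell by a smaller amount with EZH2 inhibition (log2 fold change -0.35, SE 0.07, adjusted p = 0.000241, edgeR), so that BB-p53n EZH2i cells were 2.00-fold above p53n cells (adjusted p = 1.44e-10).

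Grb10 (chromosome 11, 11880508 to 11988683, minus strand) is an adaptor that binds and dampens the insulin and IGF1 receptors. As fitted, it differed by at most 0.50 on the log2 scale in any of the 3 comparisons. With the GC and length trend described below removed, the largest difference was 0.83. It stood at 14.2, 14.7 and 12.7 CPM in BB-p53n EZH2i, at 9.82, 10.4 and 9.13 CPM in BB-p53n DMSO and at 13.99, 13.9 and 11.4 CPM in p53n. BB-p53n DMSO libraries were below all others, and the other groups overlapped. Grb10 fell by 0.42 on the log2 scale with PDGF-BB (SE 0.12, adjusted p = 0.00329) and rose by 0.50 with EZH2 inhibition (SE 0.12, adjusted p = 0.000752, edgeR). Without p53n replicate 1 the first was -0.29 with an adjusted p of 0.0706 and was no longer called. Between BB-p53n EZH2i and p53n the log2 fold change was 0.08 (adjusted p = 0.544).

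Plagl1 (chromosome 10, 12936248 to 13007438, plus strand) encodes a zinc-finger transcription factor, also called ZAC1, that arrests the cell cycle and in mouse activates other imprinted genes. It stood at 3.41, 3.73 and 3.66 CPM in BB-p53n EZH2i, at 11.6, 9.92 and 8.64 CPM in BB-p53n DMSO and at 6.66, 6.20 and 5.76 CPM in p53n. The groups were separate, with BB-p53n EZH2i lowest. Plagl1 rose with PDGF-BB (log2 fold change 0.69, SE 0.14, adjusted p = 0.000171) and fell with EZH2 inhibition (log2 fold change -1.49, SE 0.15, adjusted p = 2.42e-08, edgeR), to a level below that of p53n cells (log2 fold change -0.79, adjusted p = 0.000122).

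Peg3 (chromosome 7, 6706891 to 6733430, minus strand), a large zinc-finger protein expressed from the paternal copy, was among the most abundant of the 10. It stood at 137, 153 and 142 CPM in BB-p53n EZH2i, at 376, 357 and 357 CPM in BB-p53n DMSO and at 427, 454 and 423 CPM in p53n. BB-p53n EZH2i libraries were below all others by a wide margin, and BB-p53n DMSO libraries were below p53n. The log2 fold change was -0.26 with PDGF-BB (SE 0.06, adjusted p = 0.00117) and -1.33 with EZH2 inhibition (SE 0.07, adjusted p = 8.75e-13, edgeR), and BB-p53n EZH2i cells were below p53n cells by a log2 fold change of -1.60 (adjusted p = 8.07e-15).

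Ndn (chromosome 7, 61996317 to 62000010, plus strand) encodes necdin, a MAGE family protein that binds E2F1 and p53 and restrains growth in neurons. It stood at 52.6, 53.8 and 55.8 CPM in BB-p53n EZH2i, at 12.1, 12.1 and 11.4 CPM in BB-p53n DMSO and at 127, 111 and 110 CPM in p53n. The groups were far apart, with BB-p53n DMSO lowest and p53n highest. Ndn fell 9.77-fold with PDGF-BB (log2 fold change -3.29, SE 0.08, adjusted p = 1.09e-17) and rose 4.55-fold with EZH2 inhibition (log2 fold change 2.19, SE 0.08, adjusted p = 2.55e-14, edgeR). BB-p53n EZH2i cells remained below p53n cells by a log2 fold change of -1.10 (adjusted p = 2.02e-11). The 50 tested genes within 5 Mb had median log2 fold changes of -0.27 with PDGF-BB and -0.31 with EZH2 inhibition.

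Mest (chromosome 6, 30723546 to 30748464, plus strand), which encodes a membrane protein with an alpha/beta hydrolase fold and is expressed from the paternal copy, stood at 352, 349 and 378 CPM in BB-p53n EZH2i, at 289, 274 and 292 CPM in BB-p53n DMSO and at 116, 98.2 and 96.8 CPM in p53n. The 3 groups were separate, and the p53n libraries were lowest. Mest rose with PDGF-BB (log2 fold change 1.46, SE 0.07, adjusted p = 3.94e-13), was higher again with EZH2 inhibition (log2 fold change 0.33, SE 0.07, adjusted p = 3e-04) and was 3.47-fold above p53n in BB-p53n EZH2i cells (edgeR). Of its exon bases 23.1% overlap Copg2 on the opposite strand, and counting did not use strand, so Mest could be undercounted. Copg2 stood at 62.2 to 73.0 CPM in BB-p53n EZH2i, 69.96 to 76.2 CPM in BB-p53n DMSO and 84.3 to 93.8 CPM in p53n.

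**Figure D3:**
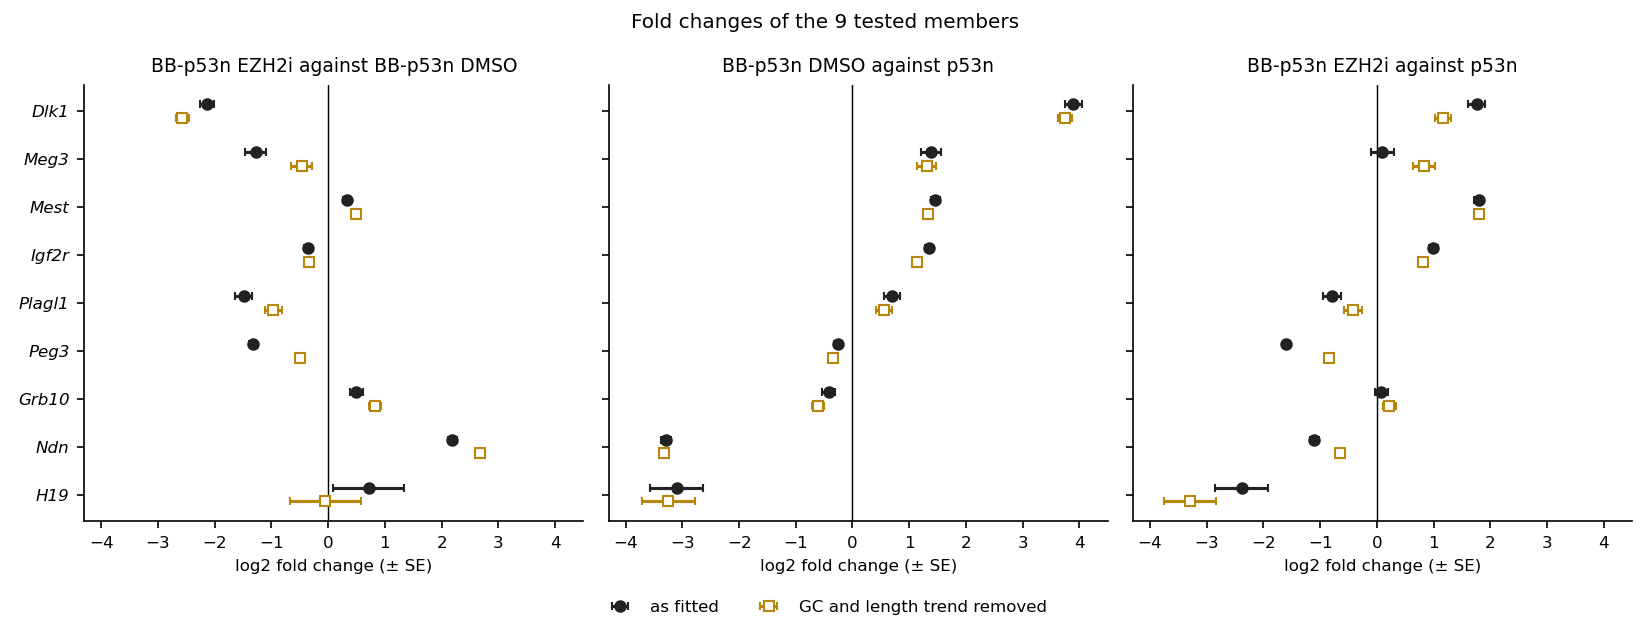
Log2 fold changes (± SE) of the 9 tested genes in each comparison, as fitted (circles) and with the trend of each library on GC content and length taken out (squares). With PDGF-BB the pairs of points lie close together, from 3.90 and 3.74 for Dlk1 to -3.29 and -3.33 for Ndn. With EZH2 inhibition the trend's removal moves Meg3 (-1.28 and -0.47) and Peg3 (-1.33 and -0.50) toward 0 and Dlk1 (-2.14 and -2.57) and Ndn (2.19 and 2.68) away from it.

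Fold changes with EZH2 inhibition moved with transcript composition among all genes. As a description of 12786 genes averaging over 1 on the log2 CPM scale, which share the same libraries, Spearman's rho between fold change and GC content was 0.73 for EZH2 inhibition and 0.14 for PDGF-BB. For exon length it was -0.43 and -0.07. The genes of the lowest GC decile had a median log2 fold change of -1.41 with EZH2 inhibition and those of the highest decile 0.83. Ndn, which rose, lies at percentile 24 of GC content among these 12786 genes, and Dlk1, which fell, at percentile 71.8, so both went against this trend. Meg3 and Peg3 are long transcripts, at percentiles 98.9 and 95.7 of exon length among the same genes. With the trend of each library on these properties removed, 3 of the 9 genes were higher and 5 lower with EZH2 inhibition, against 57.6% of all genes called (27.9% higher and 29.7% lower). The log2 fold changes were then -2.57 for Dlk1, 2.68 for Ndn, -0.97 for Plagl1, 0.83 for Grb10, -0.50 for Peg3 (adjusted p = 2.05e-07) and -0.47 for Meg3 (adjusted p = 0.0299). The Meg3 call was lost when BB-p53n DMSO replicate 1 (-0.35, adjusted p = 0.154), BB-p53n DMSO replicate 3 (-0.47, 0.0653) or BB-p53n EZH2i replicate 2 (-0.37, 0.0904) was also left out. H19 changed sign, to -0.05 (adjusted p = 0.953).

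Between BB-p53n EZH2i and p53n, 4 genes were higher and 4 lower after the same correction, against 78.6% of all genes (35.2% higher and 43.4% lower). It gave log2 fold changes of 0.84 for Meg3, which was then called (adjusted p = 0.000701), of 1.17 for Dlk1, -0.85 for Peg3, -0.65 for Ndn and -0.41 for Plagl1 (adjusted p = 0.0214). The Plagl1 call was lost without p53n replicate 1 (-0.36, adjusted p = 0.0769) or without BB-p53n EZH2i replicate 1 (-0.34, 0.0825), and Grb10, at 0.22 with an adjusted p of 0.0651, was called without p53n replicate 1 (0.28, 0.049) or without BB-p53n EZH2i replicate 3 (0.27, 0.0483). With PDGF-BB each of the 9 genes, H19 with the limit given above, kept its call and direction, against 72% of all genes called (32.1% higher and 39.9% lower). The values for Dlk1, Ndn, Mest, Igf2r, Meg3 and H19 were 3.74, -3.33, 1.32, 1.14, 1.31 and -3.25. Grb10 was then at -0.61 (adjusted p = 3.44e-05, edgeR), and at -0.55 (0.000568) without p53n replicate 1. The median over all genes was -0.11 with PDGF-BB, -0.02 with EZH2 inhibition and -0.14 between BB-p53n EZH2i and p53n after the correction.

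**Figure D4:**
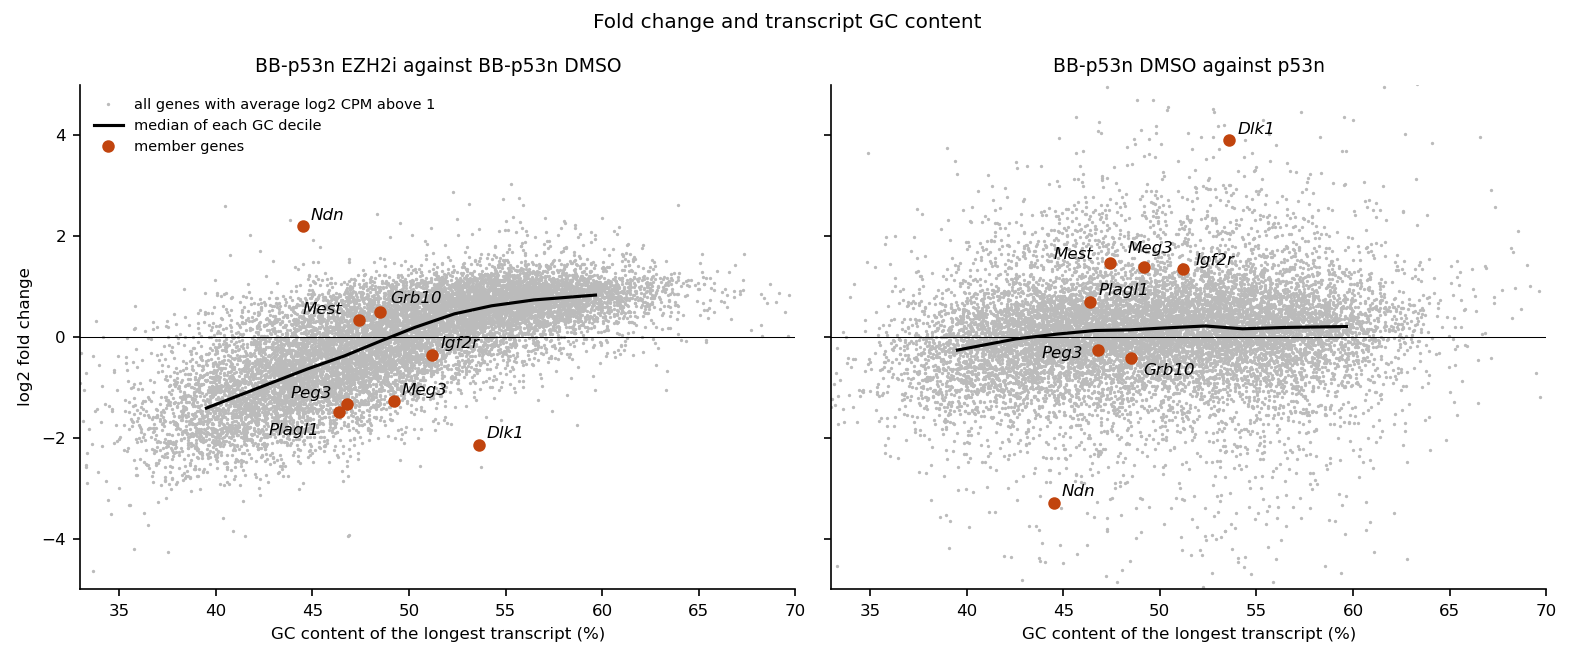
Log2 fold change of each gene against the GC content of its longest transcript, with EZH2 inhibition left and PDGF-BB expression right. Grey points are genes averaging over 1 on the log2 CPM scale, the line joins the medians of GC deciles and red points are the 8 tested genes above that level; a few genes beyond the axes are not drawn. From the lowest to the highest decile the medians run from -1.41 to 0.83 on the left, with Ndn (2.19) far above and Dlk1 (-2.14) far below the line, and from -0.26 to 0.20 on the right.

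The clusters of the 10 genes were then followed through neighbours chosen as a list of known imprinted genes. In the Dlk1 cluster the 4 tested genes other than Mirg had their highest mean in BB-p53n DMSO. Rtl1, a paternally expressed retrotransposon-derived gene needed in the placenta, had 1, 2 and 7 counts in BB-p53n EZH2i, 25, 34 and 28 counts in BB-p53n DMSO and 2, 1 and 6 counts in p53n. Its log2 fold changes were 2.84 with PDGF-BB and -2.46 with EZH2 inhibition. They are given without a test because Rtl1 passed the filter only through its counts in BB-p53n DMSO. Rian, a maternally expressed RNA that hosts small nucleolar RNAs, averaged 7.92 CPM in BB-p53n EZH2i, 15.3 CPM in BB-p53n DMSO and 4.25 CPM in p53n, and was called in both comparisons (1.84 and -0.94). Once the GC and length trend was removed the second turned to 1.47 (adjusted p = 6.43e-09), so no direction is given for Rian with EZH2 inhibition. Mirg, at 0.114 to 0.502 CPM on average, passed the filter only through PDGF-BB libraries, so its log2 fold change of 1.51 with PDGF-BB is given without a test. With EZH2 inhibition Mirg was not called (0.56, adjusted p = 0.3, edgeR). Dio3, at the cluster's far end, had at most 1 count in any library.

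In the Ndn cluster, the mouse counterpart of the Prader-Willi region, Magel2 also had its lowest level in BB-p53n DMSO and its highest in p53n. This paralogue of Ndn had 13, 1 and 18 counts in BB-p53n EZH2i, 1, 2 and 0 counts in BB-p53n DMSO and 24, 12 and 30 counts in p53n, so BB-p53n EZH2i replicate 2 overlapped BB-p53n DMSO. The ratio of summed counts was 0.0349 for BB-p53n DMSO to p53n (exact 95% interval 0.00702 to 0.107). It is given without a test because Magel2 would not have passed the filter without its counts in p53n. For BB-p53n EZH2i to BB-p53n DMSO the ratio was 16.4 (5.12 to 83.5), with an adjusted p of 0.000915 in edgeR. Snrpn, a spliceosome protein gene, had log2 fold changes of -0.46 (adjusted p = 3.53e-05) with PDGF-BB and 0.27 (adjusted p = 0.00636) with EZH2 inhibition, a call lost with no filter on low counts (0.16, adjusted p = 0.134), in the fit of the 2 groups alone (0.18, 0.0922), without chromosomes X, Y and MT (0.18, 0.0553) and without BB-p53n EZH2i replicate 1 (0.18, 0.0508). With the trend removed it was 0.53 (adjusted p = 1.76e-06). Peg12 rose with PDGF-BB (1.83, adjusted p = 1.15e-12) and had -0.02 with EZH2 inhibition (adjusted p = 0.847; -0.86 with the trend removed, adjusted p = 1.3e-07). Mkrn3 had -0.36 with PDGF-BB (adjusted p = 0.0541). It was called lower there with the trend removed (-0.57, adjusted p = 0.00278), with median-ratio size factors (-0.39, 0.0342), in DESeq2 (-0.39, 0.0421), in the fit of 2 groups (-0.35, 0.021) and without p53n replicate 2 (-0.47, 0.0288). With EZH2 inhibition it had -0.05 (adjusted p = 0.798). Ube3a, a ubiquitin ligase expressed from the maternal copy in neurons, had -0.37 (adjusted p = 0.105) and -2.18 (adjusted p = 1.28e-05), and both changed sign with the trend removed, to 0.16 and 0.19.

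**Figure D5:**
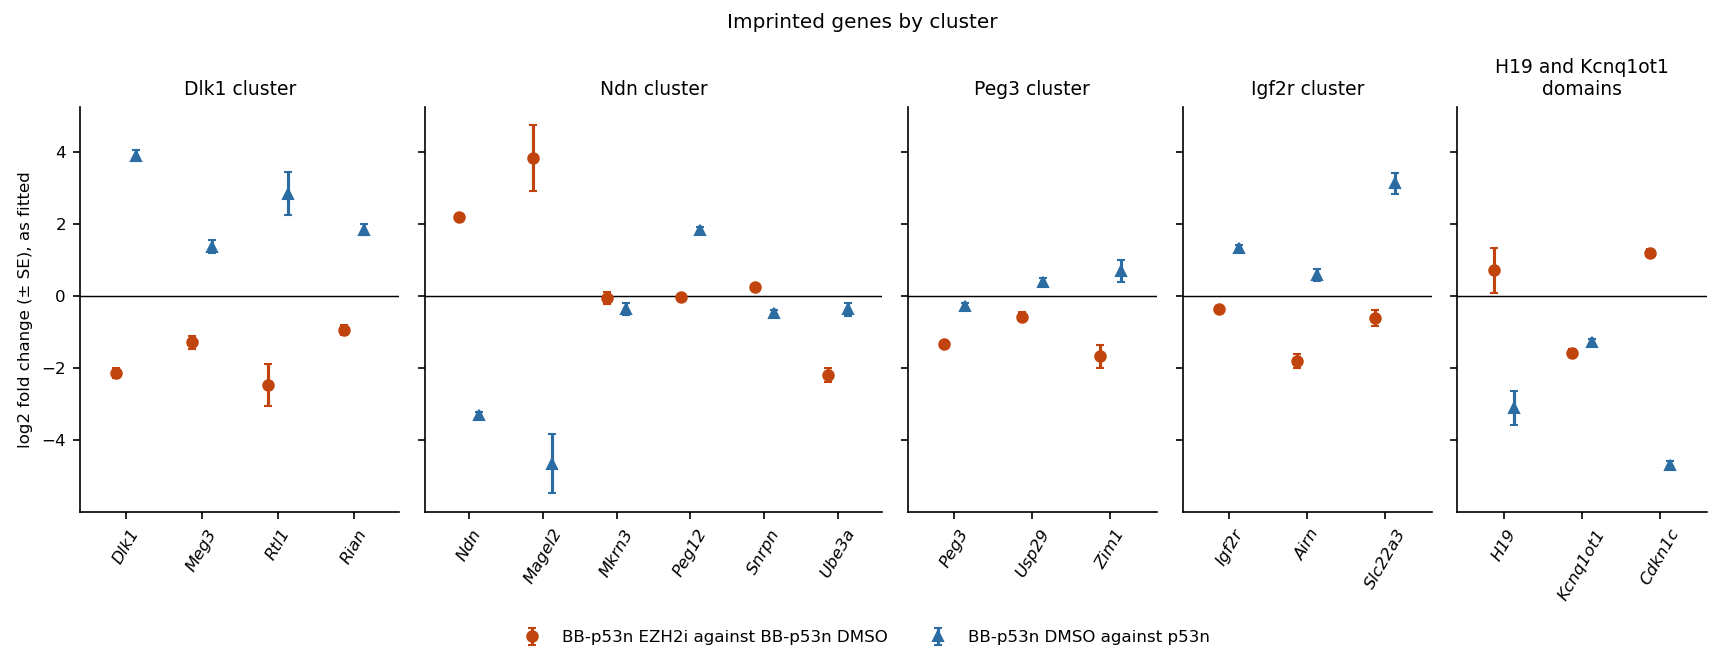
Log2 fold changes (± SE, as fitted) of tested genes of each imprinted cluster with EZH2 inhibition (circles) and with PDGF-BB expression (triangles). Dlk1, Meg3, Rtl1 and Rian lie above 0 with PDGF-BB and below 0 with EZH2 inhibition, where Rian turns to 1.47 once the GC and length trend is removed, as H19 (-0.05), Ube3a (0.19), Usp29 (0.88) and Kcnq1ot1 (0.37) also change sign; Ndn (2.19 and -3.29) and Magel2 lie the other way, and Peg12 lies at 1.83 with PDGF-BB.

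In the Igf2r cluster, Slc22a3 is an organic cation transporter that is imprinted in the placenta. It averaged 2.40 CPM in BB-p53n EZH2i, 3.69 CPM in BB-p53n DMSO and 0.420 CPM in p53n. With 9 to 12 counts per p53n library, Slc22a3 would not have passed the filter without its counts in PDGF-BB libraries. Its log2 fold change of 3.13 with PDGF-BB is therefore given without a test. With EZH2 inhibition the log2 fold change of Slc22a3 was -0.61 (adjusted p = 0.0217, edgeR). That call was lost without BB-p53n DMSO replicate 2 (-0.53, adjusted p = 0.0857) or without BB-p53n EZH2i replicate 3 (-0.40, adjusted p = 0.12). Airn, the paternal non-coding RNA that silences Igf2r in cis in most mouse tissues, averaged 1.76 CPM in BB-p53n EZH2i, 6.05 CPM in BB-p53n DMSO and 4.01 CPM in p53n (log2 fold changes 0.59, adjusted p = 0.00493, and -1.80, adjusted p = 7.12e-08, edgeR). Airn and Igf2r were thus both highest in BB-p53n DMSO.

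In the Peg3 cluster, Usp29 had log2 fold changes of 0.39 with PDGF-BB (adjusted p = 0.00688) and -0.57 with EZH2 inhibition (adjusted p = 0.000276), of which the second turned to 0.88 with the trend removed (adjusted p = 4.8e-07, edgeR). Zim1 had 0.70 (adjusted p = 0.0466) and -1.67 (adjusted p = 0.000289), of which the first was lost in 5 of the 6 fits that left out a library of that comparison and the second with the trend removed (-0.66, adjusted p = 0.0626). Beyond H19, the domain next to it holds Cdkn1c, the maternally expressed CDK inhibitor p57, which averaged 6.38 CPM in BB-p53n EZH2i, 2.78 CPM in BB-p53n DMSO and 71.5 CPM in p53n. Cdkn1c fell by 4.68 on the log2 scale with PDGF-BB (adjusted p = 2.39e-18). It rose by 1.198 with EZH2 inhibition (adjusted p = 1.79e-08), a call that was lost with the trend removed (0.28, adjusted p = 0.0554). Kcnq1ot1, the paternal non-coding RNA of that domain, fell with PDGF-BB (-1.28, adjusted p = 1.24e-10). With EZH2 inhibition it had -1.56 (adjusted p = 6.63e-11), which turned to 0.37 with the trend removed (adjusted p = 0.00176).

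Beyond the 10 genes, 19 of 21 other paternally expressed and 13 of 20 other maternally expressed imprinted genes passed the filter. Rtl1, Magel2, Mirg and Slc22a3 enter the counts below as a description, with the limits given above. The same holds for Kcnk9 and Rasgrf1. Kcnk9 had 3 to 5 counts per library in p53n and 22 to 30 in BB-p53n EZH2i, without which it would not have passed the filter. Rasgrf1 had 0 to 6 counts in BB-p53n DMSO and 9 to 15 in p53n, and would not have passed without the latter. With PDGF-BB, 7 of the paternally expressed genes were higher and 9 lower (median log2 fold change -0.46). Of the maternally expressed genes, 7 were higher and 2 lower (median 0.70). Of all genes 69.3% were called there (35.3% higher and 34% lower). Removal of the trend gave 7 higher and 12 lower for the paternally and 7 higher and 4 lower for the maternally expressed genes, beside 32.1% and 39.9% of all genes. With EZH2 inhibition the counts were 6 higher and 8 lower (median -0.44) for the paternally expressed genes. For the maternally expressed genes they were 5 higher and 6 lower (median -0.42). Of all genes 72.9% were called there (37.3% higher and 35.6% lower). With the trend removed, 9 were higher and 8 lower (median 0.15) and 5 higher and 3 lower (median 0.14), so both medians turned positive. The shares of all genes were then 27.9% higher and 29.7% lower. Nnat, a paternally expressed proteolipid of developing brain, averaged 499 CPM in BB-p53n EZH2i, 183 CPM in BB-p53n DMSO and 1131 CPM in p53n (log2 fold changes -2.63 with PDGF-BB, adjusted p = 1.17e-16, and 1.44 with EZH2 inhibition, adjusted p = 2.12e-12, edgeR; the second was 0.52 with the trend removed). Peg10, a retrotransposon-derived gene needed in the placenta, averaged 123, 246 and 70.7 CPM in the same groups (1.80 and -0.99; the second was -0.65 with the trend removed), and Inpp5f, a phosphoinositide phosphatase, averaged 114, 290 and 80.4 CPM (1.85 and -1.34, or -0.74 with the trend removed). Among other genes with large changes, Atp10a rose by 2.69 with PDGF-BB, Peg13 fell by 1.35 and Ppp1r9a fell by 1.47 on the log2 scale, and Nap1l5 fell by 1.52 with EZH2 inhibition.

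The IGF pathway, through which Igf2, Igf2r and Grb10 act, was followed in a list of 14 genes, of which 11 passed the filter. With PDGF-BB 7 were higher and 2 lower (median log2 fold change 0.75), beside 69.3% of all genes called (35.3% higher and 34% lower). With EZH2 inhibition 3 were higher and 5 lower (median 0.12), beside 72.9% (37.3% higher and 35.6% lower). With the trend removed 3 were higher and 6 lower and the median turned to -0.26, beside 27.9% and 29.7% of all genes. The receptors Igf1r and Insr averaged 126 and 97.1 CPM in BB-p53n EZH2i, 195 and 197 CPM in BB-p53n DMSO, and 76.1 and 95.02 CPM in p53n. They rose by 1.36 and 1.05 on the log2 scale with PDGF-BB and had -0.63 and -1.02 with EZH2 inhibition, where Igf1r turned to 0.04 (adjusted p = 0.521) and Insr moved to -0.17 (adjusted p = 0.0126) with the trend removed. The adaptor Irs1 rose by 1.36 with PDGF-BB and fell by 1.25 with EZH2 inhibition. Among the secreted IGF binding proteins, Igfbp3 averaged 526 CPM in BB-p53n EZH2i, 482 CPM in BB-p53n DMSO and 63.3 CPM in p53n and rose by 2.93 with PDGF-BB (adjusted p = 4.15e-17, edgeR). Igfbp4 and Igfbp2 rose in both comparisons, by 1.21 and 0.75 with PDGF-BB (1.09 and 0.46 with the trend removed) and by 1.52 and 1.36 with EZH2 inhibition (0.90 and 0.43), and Igfbp5 fell by 1.17 and 0.55. Igf1 itself did not pass the filter.

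Of 16 genes for factors that maintain or insulate imprints, 13 passed the filter. With PDGF-BB 8 were higher and 2 lower (median log2 fold change 0.31), beside 69.3% of all genes called (35.3% higher and 34% lower). With EZH2 inhibition 2 were higher and 8 lower (median -0.44), beside 72.9% (37.3% higher and 35.6% lower). Zfp57, the factor that recognises the motif printed above, averaged 8.80 CPM in BB-p53n EZH2i, 8.86 CPM in BB-p53n DMSO and 39.0 CPM in p53n and fell by 2.14 on the log2 scale with PDGF-BB (adjusted p = 1.67e-13, edgeR). Zfp445, which has a related role, averaged 31.0, 131 and 223 CPM in the same groups and fell by 0.76 with PDGF-BB and by 2.07 with EZH2 inhibition (log2 fold change -1.20 with the trend removed). Their corepressor Trim28 rose in both comparisons, by 0.68 with PDGF-BB and by 1.08 with EZH2 inhibition (0.32 with the trend removed). The maintenance methyltransferase Dnmt1 and its partner Uhrf1 rose by 2.24 and 3.01 with PDGF-BB. With EZH2 inhibition Smchd1, a chromosomal protein that silences some imprinted clusters, fell by 1.91 (log2 fold change -0.21 with the trend removed), and the cohesin subunits Smc3 and Smc1a fell by 2.01 and 1.28 (log2 fold changes -1.12 and -0.94 with the trend removed).

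For 8 of the 9 tested genes the 3 other genes with the most similar profile are given, found by the Euclidean distance between log2 CPM values, each gene centred on its mean, over the 9 libraries. They were Stc1, Inpp4b and Col25a1 for Dlk1 (distances 1.14 to 1.15) and Ska2, Tnfaip8 and Stk17b for Meg3 (0.493 to 0.554). The distances for Dlk1 were the largest of these 8 genes. For Peg3 the nearest were Npas3, Maml2 and Dlg1 (0.123 to 0.189), for Igf2r Uap1, Camsap1 and Elavl1 (0.176 to 0.184), and for Mest Hexim2, Haus7 and Mapk7 (0.206 to 0.253). For Grb10 they were Mthfsd, St6gal1 and Efr3b (0.168 to 0.235), for Plagl1 Cnksr2, Mia3 and Med12l (0.367 to 0.373), and for H19 Cfap100, Celf3 and Dyrk1b (0.324 to 0.505). Another of the 10 genes was in none of these groups of 3.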

How the data were processed

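The authors deposited 1 table of raw counts per gene, made per the file headers with featureCounts 1.6.3 over exons of the Ensembl release 108 annotation (GRCm39), with a mapping quality of at least 20 and no strand option. The submitters' processing notes also list Trimmomatic and Subread. Symbols matched 52073 of 56980 identifiers (91.4%). All else was computed from the counts: filterByExpr, TMM scaling and 1 robust quasi-likelihood model over 9 libraries with the group as its only term (edgeR 4.0.16, R 4.3.3), checked on simulated data. The replicate numbers were not taken as pairs, since the labels give them no shared origin. The alternatives were median-ratio size factors, DESeq2 1.42.0, no filter, fits of 2 groups, a replicate block, removal of each library's spline trend (5 degrees of freedom) on transcript GC content (GENCODE M21, 97.9% of tested genes) and exon length, no genes of chromosomes X, Y and MT, and leaving out each library. The 10 genes, the gene lists and the tests were chosen with earlier results of these data known. Named list genes were neighbours in the same imprinted cluster or, of each list, up to 4 called genes with the largest rise and fall at an average log2 CPM of at least 0. Genes with a profile like that of Ndn are not reported here.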

Additional observations from a re-analysis of the deposited data

How the results depend on the processing

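Over 14 alternatives, 8 to 9 of the genes were called with PDGF-BB expression, 8 to 9 with EZH2 inhibition and 7 to 8 between BB-p53n EZH2i and p53n, and the counts over all genes ranged from 11089 to 12690, 9430 to 12654 and 12986 to 15556. With the GC and length trend removed, with or without the replicate block, the log2 fold change with EZH2 inhibition changed sign for H19 (-0.0497 without and -0.0532 with the block), Rian (1.47), Ube3a (0.19), Usp29 (0.88), Kcnq1ot1 (0.37), Igfbp3 (-0.39 and -0.40), Igf1r (0.0416 and 0.0414) and Zfp57 (0.32), and that of Ube3a with PDGF-BB changed to 0.16. The cause was not tested. Leaving out a library turned values near 0: Meg3 between BB-p53n EZH2i and p53n ranged from -0.0309 to 0.28, and with EZH2 inhibition Zfp57 ranged from -0.0824 to 0.0757, Mkrn3 from -0.23 to 0.0569, Peg12 from -0.10 to 0.0909 and Dnmt1 from -0.0778 to 0.00157. Grb10 with PDGF-BB ranged from -0.45 to -0.29 over the same fits. The settings for named list genes were added after the data were seen. Same-numbered libraries deviated together in pairs 1 and 2 with EZH2 inhibition (r of 0.353 and 0.28) but not in pair 3 (-0.00761), nor with PDGF-BB (-0.126, -0.00195 and -0.0284), and not every library correlated best with its own number, so the numbers were not taken as pairs. The replicate block left 9, 8 and 7 genes called and 11665, 12267 and 13854 over all genes. Depth limits H19, Igf2, Magel2 and Rtl1, which rest on few counts in at least 1 group.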
